A study of Homo sapiens with 12 samples.

Results

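The 10 genes described here encode ubiquitin-editing enzymes, their partners and TNF receptor-associated factors (TRAFs), which act between cell-surface receptors and the transcription factor NF-kB. They were named by function, and were chosen with earlier results of these data known. Each was read from the array features that the platform annotation assigns to exactly 1 gene, and where a gene had several such features the one with the highest mean over the 12 arrays was kept. All 10 were measured, among 18417 genes on the array. The RNA came from MDA-MB-231, an established human triple-negative breast cancer cell line, and was hybridised to one-colour Affymetrix arrays in 4 groups of 3. These were treated-to-resistance (TTR) cells given TRAIL, a ligand of cell-surface death receptors, at a dose of 100 ng per ml over 2 hours; untreated TTR cells; parental cells given the same TRAIL; and untreated parental cells. The sources used here do not say how the TTR derivative was raised or whether it is 1 clone. The sample descriptions carry a mark of one form on the TTR arrays and of another on the parental arrays, and whatever it stands for (they do not explain it) cannot be told apart from cell line.

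In this pathway, ligand-bound receptors of the TNF and Toll-like families gather TRAF adaptors, most of which are ubiquitin ligases. The chains they build, together with linear chains made by the complex that holds RNF31, are the platform on which the kinases that free NF-kB are activated. Deubiquitinases such as TNFAIP3 (also called A20), CYLD and OTUD7B take these chains apart or replace them, and TNIP1 and TNIP2 bring A20 to its substrates. TNFAIP3 and TRAF1 are textbook targets of NF-kB, so the pathway makes part of its own brake.

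Levels and differences below are on the log2 scale of the deposited values, the limma fit's standard error (SE) follows each ±, n = 3 arrays per group, and a difference passed when its adjusted p was under 0.05. The labels do not say whether replicates were separate cultures, so p-values measure the spread between these arrays, which may be technical. On bulk RNA, fewer cells with a transcript and less of it per cell cannot be told apart. The parental TRAIL arrays stood apart from the rest: their medians over all features were 4.58 to 4.61, against 4.38 to 4.40 for TTR cells with TRAIL and 4.24 to 4.31 for the untreated arrays. The mean array median was thus 0.11 higher with TRAIL than without in TTR cells and 0.29 higher in parental cells, and values after centring each array on its median are given where they matter. Of the markers of this mesenchymal-type line, VIM lay at 11.1 to 11.9 and the other 4 above the array median on all 12 arrays. Markers of other cells, such as ESR1, CDH1, PTPRC and DCN, lay below the median on all 12, and the exceptions were GATA3 and COL1A1, above it throughout, and CD14 and PECAM1, above it on some arrays. The mean level of the 5 markers of the line moved with the group in which CYLD, TRAF3 and TRAF6 fell: it was 9.87 to 10.01 in parental cells with TRAIL, against 10.37 to 10.56 in untreated parental cells, and in TTR cells 10.63 to 10.71 with TRAIL, against 10.49 to 10.78 without. The mean of the 6 luminal markers was 3.87 to 3.90 in parental cells with TRAIL, against 3.60 to 3.65 in untreated parental cells, while the ranges of the blood and of the fibroblast and endothelial markers overlapped between those groups. The part of these shifts in the results was not tested.

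**Figure D1:**
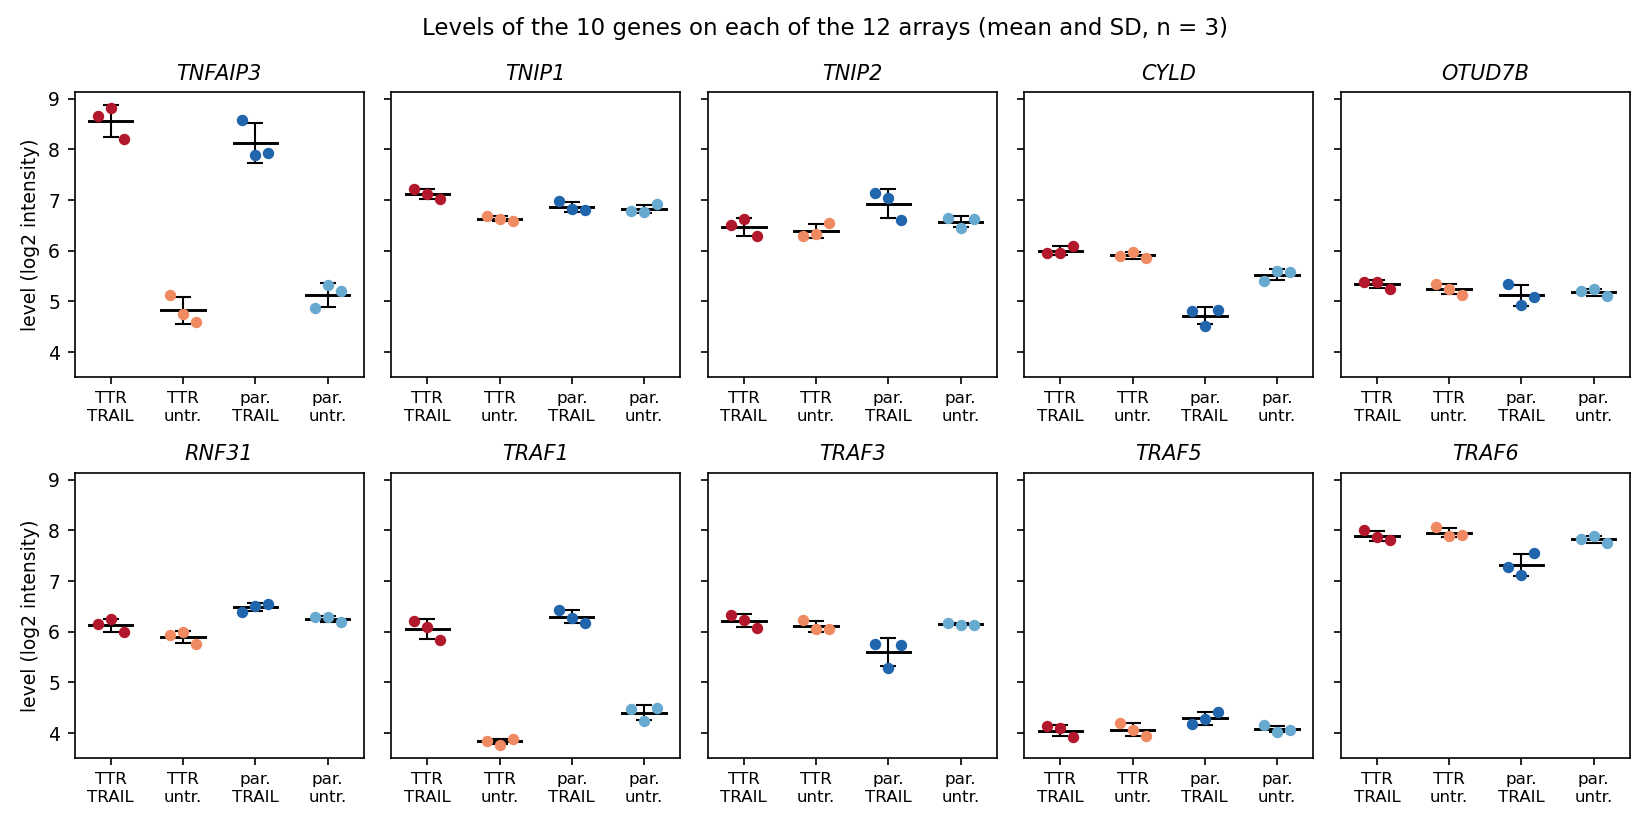
Level of each gene (log2 intensity, vertical axis, shared by all panels) on every array, with mean and SD of the 3 arrays per group; par. is parental and untr. is untreated. TNFAIP3 and TRAF1 stand high in both TRAIL groups, whereas CYLD, TRAF3 and TRAF6 are lowest in parental cells with TRAIL.

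TRAIL raised TNFAIP3 and TRAF1 in both lines. In TTR cells 3 of the 10 genes rose (TNFAIP3, TRAF1 and TNIP1) and 0 fell by limma, where 5.82% of all 18417 genes passed, 3.27% higher and 2.55% lower. In parental cells 3 rose (TNFAIP3, TRAF1 and TNIP2) and 3 fell (CYLD, TRAF3 and TRAF6), where 58.8% of all genes passed, 28.9% higher and 29.9% lower. Values of the TRAIL arrays did not overlap those of the untreated arrays for 3 of the 10 genes in TTR cells, against 27.5% of all genes, and for 7 of the 10 in parental cells, against 62.2%. The 6 calls in parental cells are thus close to the share of all genes, while the 3 of 10 in TTR cells stand beside a much smaller one. By array separation both lines lie near the share of all genes. The members were chosen with earlier results known, so nothing is drawn from these counts. The median change over the 10 genes was 0.10 in TTR cells, against −0.01 over all genes, and 0.13 in parental cells, against 0.05. After median centring 3 of the 10 genes were called higher and 0 lower in TTR cells, beside 448 and 1943 of all 18417 genes. In parental cells 2 were then called higher and 5 lower, beside 2328 and 8608 of all genes. Of the calls over all genes in TTR cells, 18.7% pointed up after that centring, against 56.2% as deposited. In parental cells 21.3% of them pointed up (37.9% after quantile normalization), against 49.1%. With the replicate number pairing the TTR arrays, the members kept 3 calls there and the count over all genes was 2670, against 1072 without the pairing.

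**Figure D2:**
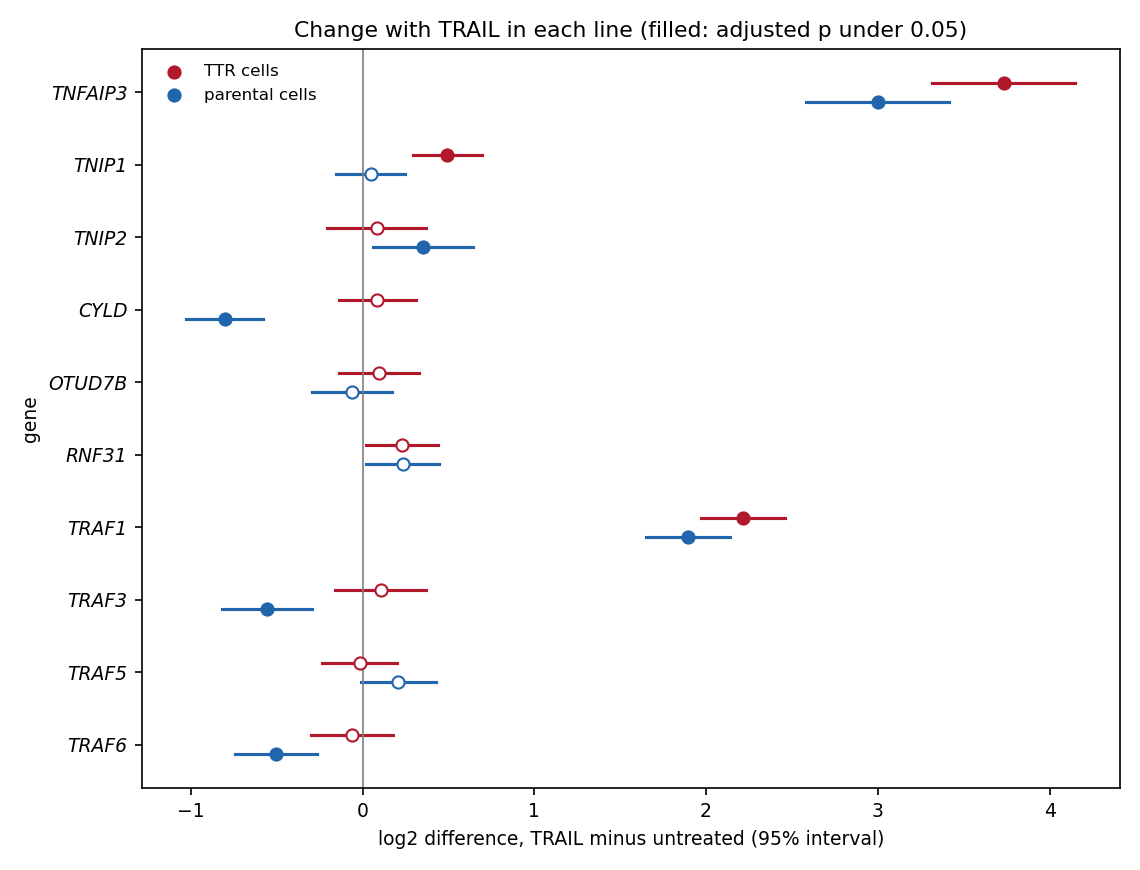
Difference with TRAIL for each gene (log2, TRAIL minus untreated, horizontal axis) with its 95% interval in TTR cells (red, upper) and parental cells (blue, lower); filled points passed the test. TNFAIP3 and TRAF1 lie far to the right in both lines, and the parental points of CYLD, TRAF3 and TRAF6 lie left of 0.

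The A20 deubiquitinase TNFAIP3, which removes and rebuilds ubiquitin chains on signalling proteins and so ends NF-kB activation, had the largest change with TRAIL of the 10 genes in both lines. Its level was 8.65, 8.82 and 8.20 in TTR cells with TRAIL, against 5.12, 4.75 and 4.60 in untreated TTR cells. In parental cells with TRAIL it was 8.59, 7.89 and 7.92, against 4.87, 5.32 and 5.21 in untreated parental cells. All TRAIL arrays were thus above all untreated arrays, and neither the 2 TRAIL groups nor the 2 untreated groups were separated from one another. The rise was 13.3-fold in TTR cells (3.73 ± 0.20, adjusted p = 2.66e-09), where only 6 genes on the array rose further, and 7.99-fold in parental cells (3.00 ± 0.20, adjusted p = 1.95e-09), where 102 did. The TTR rise was larger by 0.73 ± 0.28 (95% interval 0.14 to 1.32, adjusted p = 0.0488), and that call was lost after quantile normalization (0.49, adjusted p = 0.186). It was also lost on leaving out TTR TRAIL array 1 or 2, or array 2 or 3 of any of the other groups (adjusted p = 0.0906 to 0.130), and over all 12 arrays left out in turn the difference was 0.60 to 0.96.

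TNIP1 (also called ABIN-1), a ubiquitin-binding partner through which A20 reaches its substrates, rose in TTR cells. Its level was 7.22, 7.12 and 7.02 in TTR cells with TRAIL, against 6.68, 6.63 and 6.58 in untreated TTR cells, with no overlap. In parental cells it was 6.98, 6.82 and 6.80 with TRAIL, against 6.78, 6.77 and 6.92 without, and those values overlapped. The TTR rise was 1.41-fold (0.49 ± 0.09, adjusted p = 0.0056), and it passed under all 22 alternatives run on it. In parental cells the difference was 0.05 ± 0.09 (95% interval −0.15 to 0.25, adjusted p = 0.701), and after median centring it turned to −0.24 and passed (adjusted p = 0.037). The difference between the lines was 0.45 ± 0.13 (adjusted p = 0.0147), and it missed the threshold after quantile normalization (0.24, adjusted p = 0.171).

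TNIP2 (ABIN-2), a related A20-binding protein, rose in parental cells, by a call that 5 of the 6 arrays compared could each undo when left out. It lay at 6.50, 6.63 and 6.28 in TTR cells with TRAIL and at 6.29, 6.33 and 6.56 in untreated TTR cells, which overlap. With TRAIL, parental cells held 7.14, 7.03 and 6.60, against 6.64, 6.45 and 6.63 in untreated parental cells, so that the third TRAIL array fell within the untreated range. The parental rise of 1.28-fold (0.35 ± 0.14, adjusted p = 0.0357) was 0.06 after median centring (adjusted p = 0.711). It was lost on leaving out parental TRAIL array 1 or 2, or any untreated parental array (adjusted p = 0.0505 to 0.161, differences over all left-out arrays 0.25 to 0.51). In TTR cells it stood at 0.08 ± 0.14 (95% interval −0.21 to 0.37), and the difference between the lines, −0.27 ± 0.19, did not pass (adjusted p = 0.300).

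CYLD, a tumour suppressor that cleaves linear and other non-degradative ubiquitin chains, fell with TRAIL in parental cells. Its level was 5.95, 5.95 and 6.10 in TTR cells with TRAIL and 5.90, 5.99 and 5.85 in untreated TTR cells. It was 4.81, 4.52 and 4.83 in parental cells with TRAIL, against 5.40, 5.60 and 5.58 in untreated parental cells. The parental TRAIL arrays were below every other array, the untreated parental arrays came next, and the 2 TTR groups overlapped at the top. TRAIL lowered it 1.75-fold in parental cells (−0.80 ± 0.10, adjusted p = 5.01e-06, −1.09 after median centring), with the call kept under all 21 alternatives. In TTR cells the difference was 0.09 ± 0.10 (95% interval −0.14 to 0.31). The lines differed in this by 0.89 ± 0.15 (adjusted p = 1.70e-04), and that call held under all 19 alternatives run on it. On parental TRAIL array 2 CYLD, at 4.52, lay below the median of all features (4.61), so its level there can be background. The parental fall, and the differences from parental cells with TRAIL, may therefore be lower bounds.

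OTUD7B (also called Cezanne), an A20-related deubiquitinase of the OTU family, moved little on any array. It ranged from 5.25 to 5.39 in TTR cells with TRAIL and from 5.14 to 5.35 in untreated TTR cells. In parental cells it ranged from 4.94 to 5.34 with TRAIL and from 5.10 to 5.24 without. The groups overlapped in all comparisons as deposited, and the TRAIL differences were 0.10 ± 0.11 in TTR cells and −0.06 ± 0.11 in parental cells (95% interval −0.29 to 0.17, adjusted p = 0.661). In parental cells it passed as lower after median centring (−0.35, adjusted p = 0.0141) and after quantile normalization (−0.29, adjusted p = 0.0381).

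RNF31 (HOIP), the catalytic subunit of the complex that builds linear ubiquitin chains, was lower in TTR than in parental cells under either condition. Its level was 6.15, 6.25 and 5.99 in TTR cells with TRAIL, against 6.40, 6.51 and 6.55 in parental cells with TRAIL. Untreated, it was 5.94, 5.99 and 5.76 in TTR cells, against 6.29, 6.29 and 6.19 in parental cells. No TTR array reached the parental range of its condition. TTR minus parental was −0.36 ± 0.10 with TRAIL (adjusted p = 0.0059) and −0.36 ± 0.10 without (adjusted p = 0.0401). The difference with TRAIL was −0.16 after median centring (adjusted p = 0.227). The untreated one missed the threshold after either scaling (adjusted p = 0.0623 and 0.0671). It also did so with only the untreated groups in the fit (0.0558) and with an intensity trend (0.0562). The same held on leaving out TTR TRAIL array 1 or any of the 6 untreated arrays (0.0588 to 0.163, differences −0.40 to −0.29). A second feature naming only RNF31 gave −0.22 ± 0.08 with TRAIL and −0.30 ± 0.08 without, of the same sign. That feature lay at 3.62 to 4.08, below the median of all features on every array, so its level can be background. With adjustment over all features, the difference with TRAIL passed for the feature kept (adjusted p = 0.0083) and for the second (0.0494). The untreated difference then passed for neither (0.0740 and 0.0803). TRAIL itself gave 0.23 ± 0.10 in each line, which did not pass (adjusted p = 0.198 in TTR and 0.0551 in parental cells), although the parental TRAIL arrays lay above the untreated parental ones. In parental cells this difference turned to −0.06 after median centring (adjusted p = 0.648). It passed there after quantile normalization (0.31, adjusted p = 0.0155) and without parental TRAIL array 1 (0.28, adjusted p = 0.0408), among 5 of 21 alternatives.

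TRAF1 is the TRAF without the RING domain that gives most others their ligase activity, and it binds TRAF2 and the inhibitor-of-apoptosis ligases. It rose in both lines. Its level was 6.21, 6.10 and 5.84 in TTR cells with TRAIL, against 3.86, 3.77 and 3.88 in untreated TTR cells. It was 6.44, 6.28 and 6.18 in parental cells with TRAIL, against 4.47, 4.23 and 4.50 in untreated parental cells. Every TRAIL array was above every untreated array, and the untreated TTR arrays were below all untreated parental arrays. The rise was 4.64-fold in TTR cells (2.22 ± 0.11, adjusted p = 2.13e-09), where 27 genes rose further, and 3.72-fold in parental cells (1.90 ± 0.11, adjusted p = 8.54e-10), where 248 did. The difference between the rises, 0.32 ± 0.16 (95% interval −0.02 to 0.66), did not pass (adjusted p = 0.138) but did after median centring (0.50, adjusted p = 0.0206). The untreated TTR level was 1.48-fold lower than the untreated parental one (−0.56 ± 0.11, adjusted p = 0.0056), a call kept under all 22 alternatives. It lay below the median of all features on 4 of the 12 arrays, and with no detection call in the data used here a low untreated level can be background. The rises with TRAIL, and the ranks based on them, may therefore be lower bounds, and the size of the difference between the untreated lines is uncertain.

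TRAF3, which restrains the non-canonical NF-kB branch by having its kinase MAP3K14 degraded, was lower with TRAIL in parental cells. Its level was 6.34, 6.23 and 6.08 in TTR cells with TRAIL and 6.24, 6.05 and 6.05 in untreated TTR cells. It was 5.76, 5.28 and 5.75 in parental cells with TRAIL, against 6.18, 6.14 and 6.14 in untreated parental cells. The parental TRAIL arrays lay below the other 9, with an SD of 0.28, against 0.02 in untreated parental cells. The fall was 1.47-fold (−0.56 ± 0.12, adjusted p = 9.72e-04), kept under all 21 alternatives, and TTR cells stood at 0.10 ± 0.12 (95% interval −0.16 to 0.37). The lines differed by 0.66 ± 0.18 (adjusted p = 0.0068), which passed under all 19 alternatives.

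TRAF6, the ligase that serves Toll-like and interleukin-1 receptors, had the same order of groups as CYLD at its low end. Its level was 8.01, 7.86 and 7.82 in TTR cells with TRAIL and 8.07, 7.90 and 7.91 in untreated TTR cells. In parental cells it was 7.28, 7.12 and 7.56 with TRAIL, against 7.82, 7.89 and 7.75 without, and the TRAIL arrays there lay below all 9 others. The parental fall was 1.42-fold (−0.50 ± 0.11, adjusted p = 9.95e-04) and −0.79 after median centring, but −0.26 after quantile normalization, where it did not pass (adjusted p = 0.0653). TTR cells stood at −0.06 ± 0.11 (95% interval −0.30 to 0.18). The difference between the lines, 0.44 ± 0.16 (adjusted p = 0.0369), was lost after quantile normalization (0.21, adjusted p = 0.349). It was also lost on leaving out array 1 or 2 of either parental group, array 1 or 2 of TTR with TRAIL, or array 2 or 3 of untreated TTR (adjusted p = 0.0573 to 0.0946, differences over all left-out arrays 0.35 to 0.56).

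TRAF5, an adaptor of several TNF-family receptors, lay below the median of all features on all 12 arrays, so its level can be background. It ranged from 3.93 to 4.13 in TTR cells with TRAIL and from 3.95 to 4.20 in untreated TTR cells. In parental cells it ranged from 4.18 to 4.42 with TRAIL, against 4.02 to 4.15 without, which do not overlap. That difference of 0.21 ± 0.10 did not pass (adjusted p = 0.0917) and was −0.08 after median centring, and TTR cells stood at −0.02 ± 0.10.

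RefSeq promoter windows on assembly GRCh38.p14, from 250 bases before to 50 after an annotated start, were read for all 10 genes, because NF-kB is the factor that this pathway releases. All 10 matched by symbol, with 18 windows, and windows of CYLD overlap one another, as do windows of TRAF5. The motif searched was the textbook kappaB consensus, of 10 letters, on both strands. It was found in 5 of the 18 windows (27.8%), those of TNFAIP3, TNIP1, TRAF3 and, with 2 windows, CYLD, and 11.3% of the 35116 windows of all genes held it. Because the motif was chosen after these windows had been read, and windows of a gene share bases, nothing is drawn from the difference between those shares. For each of these genes the first window with a match is shown 5′ to 3′ on the gene's strand, with matches on either strand in capitals. They lie at chr6:137867009-137867308, plus strand, at chr5:151080985-151081284, minus strand, at chr16:50741836-50742135, plus strand, and at chr14:102777199-102777498, plus strand.
TNFAIP3: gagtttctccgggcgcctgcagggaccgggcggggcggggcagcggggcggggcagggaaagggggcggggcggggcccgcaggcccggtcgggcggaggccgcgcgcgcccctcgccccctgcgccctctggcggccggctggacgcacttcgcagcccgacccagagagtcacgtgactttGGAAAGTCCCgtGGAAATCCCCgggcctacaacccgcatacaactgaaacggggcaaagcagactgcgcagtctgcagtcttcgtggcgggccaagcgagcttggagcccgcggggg
TNIP1: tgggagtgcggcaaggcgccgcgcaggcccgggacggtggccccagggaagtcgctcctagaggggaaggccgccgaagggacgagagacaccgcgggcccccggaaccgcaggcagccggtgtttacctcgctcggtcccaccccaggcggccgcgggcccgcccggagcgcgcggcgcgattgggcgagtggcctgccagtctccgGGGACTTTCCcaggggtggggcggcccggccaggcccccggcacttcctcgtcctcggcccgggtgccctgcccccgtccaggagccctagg
CYLD: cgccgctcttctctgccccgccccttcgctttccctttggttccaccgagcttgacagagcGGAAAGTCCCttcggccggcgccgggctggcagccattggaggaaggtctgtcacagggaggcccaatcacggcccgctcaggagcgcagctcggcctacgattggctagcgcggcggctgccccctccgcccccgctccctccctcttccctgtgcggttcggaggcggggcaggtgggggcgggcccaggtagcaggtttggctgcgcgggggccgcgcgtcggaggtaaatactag
TRAF3: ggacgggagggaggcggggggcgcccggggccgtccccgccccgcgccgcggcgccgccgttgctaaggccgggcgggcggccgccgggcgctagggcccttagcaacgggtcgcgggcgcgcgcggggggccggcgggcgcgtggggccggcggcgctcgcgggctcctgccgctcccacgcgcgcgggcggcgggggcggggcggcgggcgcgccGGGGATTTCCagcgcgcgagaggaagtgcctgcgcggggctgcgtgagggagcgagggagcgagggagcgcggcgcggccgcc
The TNFAIP3 window held 2 matches, from −67 to −58 and from −55 to −46 counted with the first transcribed base as 0, where 2.04% of all windows held 2 or more. The TNIP1 match ran from −42 to −33, the TRAF3 match from −33 to −24 and the CYLD match from −189 to −180. The other CYLD window matched from 0 to 9, where the same 10 bases meet the consensus read on either strand. The consensus therefore stood near starts of genes that rose (TNFAIP3 in both lines, TNIP1 in TTR cells) and of genes that fell with TRAIL in parental cells (CYLD and TRAF3). It was not in the windows of TRAF1, which rose in both lines, of TNIP2, called higher in parental cells, or of TRAF6, which fell there. The windows of OTUD7B, RNF31 and TRAF5 also lacked it. Such a match describes these letters and not binding, and TNIP1 and CYLD also have windows without it.

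The TTR line was then set against the parental line. These comparisons share their arrays with the TRAIL comparisons above. With TRAIL, 4 of the 10 genes were higher in TTR cells (CYLD, TRAF3, TRAF6 and TNIP1) and 2 lower (TNIP2 and RNF31), where 54.4% of all genes passed, 28.0% higher and 26.4% lower. Values of 6 of the 10 did not overlap between the lines, against 60.2% of all genes. CYLD differed most: TTR cells with TRAIL stood 2.42-fold above parental cells with TRAIL (1.28 ± 0.10, adjusted p = 3.87e-08). TRAF3 was 1.54-fold higher (0.62 ± 0.12, adjusted p = 4.69e-04) and TRAF6 1.49-fold higher (0.58 ± 0.11, adjusted p = 3.55e-04), and all 3 passed under all 21 alternatives. TNIP1 was 1.19-fold higher (0.25 ± 0.09, adjusted p = 0.0324) but at 0.07 after quantile normalization (adjusted p = 0.586). Its call was also lost with only these groups in the fit (0.0638, or 0.0631 with the replicate number as a block) and on leaving out TTR TRAIL array 1 or 2 or parental TRAIL array 2 or 3 (0.0725 to 0.131, differences 0.20 to 0.31). TNIP2 was 1.37-fold lower (−0.45 ± 0.14, adjusted p = 0.0101), at −0.25 after median centring (adjusted p = 0.141). It missed the threshold without parental TRAIL array 1 (−0.35, adjusted p = 0.055) or TTR TRAIL array 3 (−0.36, adjusted p = 0.057).

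TNFAIP3, at 0.42 ± 0.20 (95% interval 0.00 to 0.84), and TRAF1, at −0.25 ± 0.11, did not pass between the lines with TRAIL (adjusted p = 0.0809 and 0.0815). TNFAIP3 passed after median centring (0.62, adjusted p = 0.0142), with the replicate number as a block among these groups (adjusted p = 0.0351), and without parental TRAIL array 1 (0.65, adjusted p = 0.0083) or TTR TRAIL array 3 (0.60, adjusted p = 0.022). TRAF1 passed after quantile normalization (−0.34, adjusted p = 0.0178) and without TTR TRAIL array 1 (−0.33, adjusted p = 0.0419). OTUD7B (0.22 ± 0.11, adjusted p = 0.101) passed after median centring (0.42) or quantile normalization (0.34) and without parental TRAIL array 1 (0.33, adjusted p = 0.016). TRAF5 (−0.24 ± 0.10, adjusted p = 0.0597) passed without that same array (−0.29, adjusted p = 0.0374).

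In untreated cells 1 of the 10 genes was higher in the TTR line (CYLD) and 2 were lower (TRAF1 and RNF31), where 7.11% of all genes passed, 3.64% higher and 3.47% lower. Values did not overlap for 5 of the 10, against 24.6% of all genes. CYLD was 1.31-fold higher (0.39 ± 0.10, adjusted p = 0.0334). Its call was lost after quantile normalization (0.37, adjusted p = 0.0546) and without any one of the 6 untreated arrays (adjusted p = 0.056 to 0.156, differences 0.32 to 0.42). TRAF1 and RNF31 are given above. The other 7 genes differed by −0.31 (TNFAIP3) to 0.13 (TRAF6) and did not pass, among them TNIP1 (−0.19 ± 0.09) and TRAF6 (0.13 ± 0.11), whose arrays did not overlap.

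**Figure D3:**
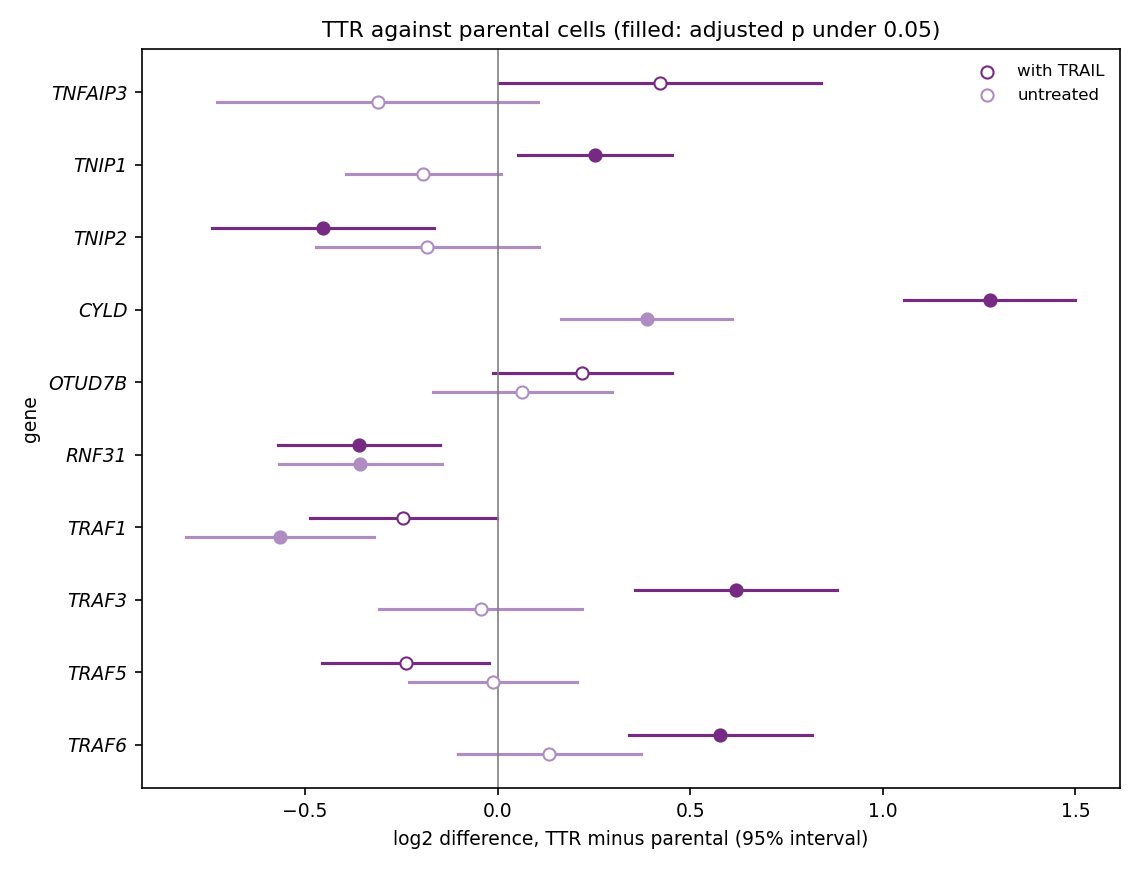
Difference between the lines for each gene (log2, TTR minus parental, horizontal axis) with its 95% interval, with TRAIL (dark, upper) and untreated (light, lower); filled points passed the test. CYLD lies right of 0 under both conditions and RNF31 left of it, while TRAF3 and TRAF6 lie apart from 0 with TRAIL.

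The difference between the TRAIL effects (the TTR change minus the parental change) passed for 5 of the 10 genes, all above 0, where 37.2% of all genes passed, 22.9% above 0 and 14.3% below. These were CYLD, TRAF3, TNIP1, TRAF6 and TNFAIP3. CYLD, TRAF3 and TRAF6 fell in parental cells and did not pass in TTR cells, whereas TNFAIP3 rose in both lines and TNIP1 rose by the test in TTR cells. The median over the 10 genes was 0.38, against −0.03 over all genes. After quantile normalization 2 of the 5 calls were left, CYLD (1.05) and TRAF3 (0.68). Over all genes 6237 then passed (3937 above 0 and 2300 below), against 6852 as deposited. After median centring 6 members passed, all above 0, with TRAF1 added. Over all genes 6685 then passed, 5410 above 0 and 1275 below, so most calls (80.9%) pointed the same way as those of the members.

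The genes with the profiles most like those of the 3 members that changed most with TRAIL in parental cells were taken by Pearson correlation over the 12 arrays, which share 4 groups. For TNFAIP3 they were the kinase NUAK2 (r = 0.983), the atypical inhibitor NFKBIZ (r = 0.966) and the zinc finger factor EGR1 (r = 0.965). NUAK2 averaged 6.48 in TTR cells with TRAIL, 4.53 in untreated TTR cells, 6.35 in parental cells with TRAIL and 4.68 in untreated parental cells. For TRAF1 they were EGR1 (r = 0.986), the zinc finger factor KLF10 (r = 0.986) and the surface protein CD83 (r = 0.984). For CYLD they were DCAF6 (r = 0.989), the transcription factor MYBL1 (r = 0.986) and the ubiquitin ligase HERC4 (r = 0.983). HERC4 averaged 7.14 in TTR cells with TRAIL, 7.34 in untreated TTR cells, 5.33 in parental cells with TRAIL and 6.59 in untreated parental cells.

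A wider list of 65 genes of the ubiquitin and kinase machinery around these members had 54 measured. In TTR cells 3 of the 54 rose with TRAIL and 0 fell by limma (median −0.03, −0.01 over all genes), beside 5.82% of all genes passing, 3.27% higher and 2.55% lower. They were TIFA, a TRAF6-activating adaptor (0.76 ± 0.12, adjusted p = 8.49e-04), IRAK2, a kinase of the Toll-like receptor complex (0.55 ± 0.12), and ZFAND5, an A20-type zinc finger protein (0.41 ± 0.11, adjusted p = 0.0417). ZFAND5 missed the threshold after median centring (0.30, adjusted p = 0.0832) and on leaving out parental untreated array 1, TTR untreated array 2 or 3, or any TTR TRAIL array (adjusted p = 0.0567 to 0.179). IRAK2 missed it when TTR TRAIL array 1 or untreated TTR array 2 or 3 was left out (adjusted p = 0.0566 to 0.0771). The count was 5, with 2 higher and 3 lower, after median centring, 8 (7 and 1) with the TTR arrays paired, 7 (5 and 2) with array weights, and 1 when TTR TRAIL array 1 or untreated TTR array 2 or 3 was left out. In parental cells 8 rose and 33 fell, beside 58.8% of all genes passing, 28.9% higher and 29.9% lower. The median was −0.43 (0.05 over all genes), −0.73 after median centring (−0.24 over all genes) and −0.54 after quantile normalization (−0.06 over all genes). After median centring 3 rose and 37 fell, beside 2328 and 8608 of all 18417 genes. After quantile normalization 11 rose and 30 fell, beside 3524 and 5783 of all genes. OTUD1, a deubiquitinase (1.14 ± 0.13), ZFAND5 (0.82 ± 0.11), TRAF4 (0.72 ± 0.12) and the kinase IRAK1 (0.55 ± 0.12) had the smallest p among those that rose, and IRAK1 did not pass after median centring (0.26, adjusted p = 0.0759). FBXW11 (−1.55 ± 0.12), CUL1 (−1.49 ± 0.11), the deubiquitinase ZRANB1 (−1.48 ± 0.10) and TAB2, which links ubiquitin chains to the kinase MAP3K7 (−1.36 ± 0.10), had it among those that fell. All 5 genes listed for the type of ligase that marks the NF-kB inhibitors for degradation fell, where 29.9% of all genes were called lower. Their differences were −1.55 to −0.81 as deposited, −1.84 to −1.10 after median centring and −0.57 or lower after quantile normalization. The other 3 of them, named after their values were seen, were BTRC, RBX1 and SKP1. In TTR cells 0 of the 5 passed, at −0.32 to −0.15. FBXW11 lay at 6.14, 6.29 and 6.57 in parental cells with TRAIL, against 7.95, 7.95 and 7.73 in untreated parental cells.

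**Figure D4:**
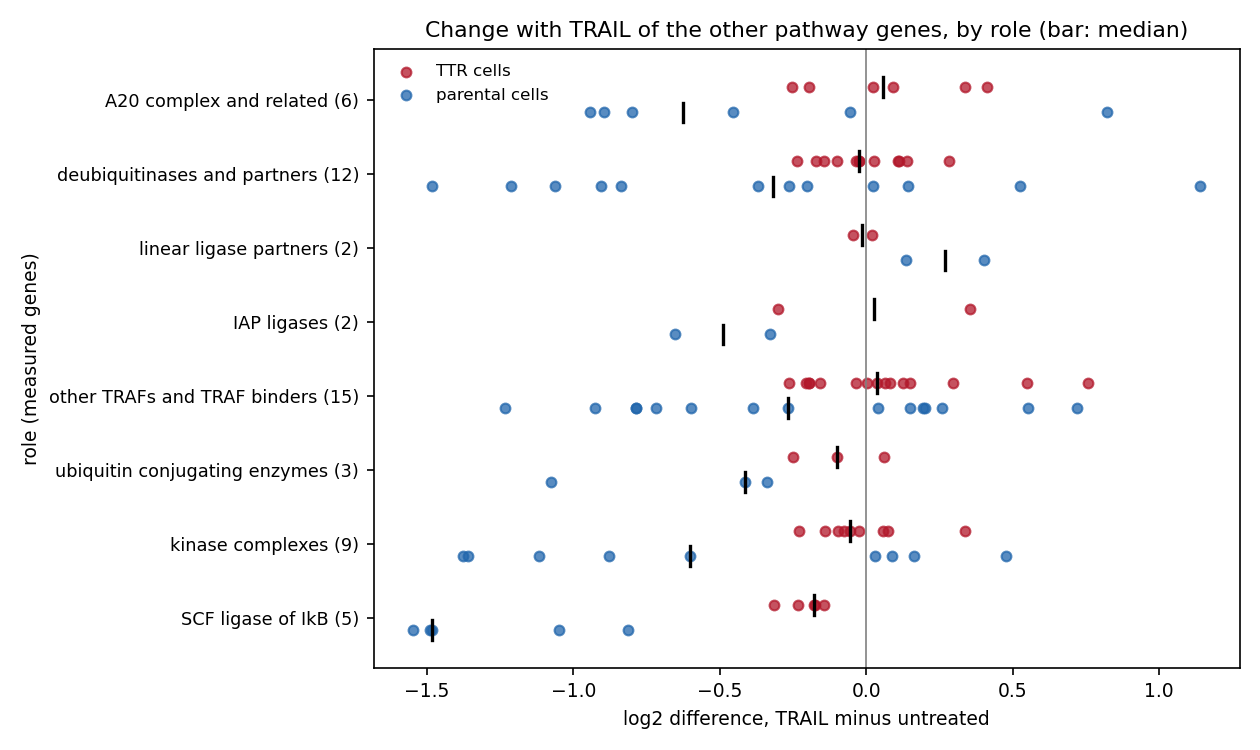
Difference with TRAIL of the 54 other pathway genes (log2, TRAIL minus untreated, horizontal axis) by role, with TTR cells in red above parental cells in blue and a black bar at each median. The points of TTR cells lie between −0.32 and 0.76, those of parental cells between −1.55 and 1.14.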

How the data were processed

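Expression was measured on one-colour Affymetrix arrays of total RNA, 12 arrays in 4 groups of 3. The deposited values are log2 intensities that the authors made with RMA in Affymetrix Power Tools, per the submitters' processing notes; no version, setting or build was found there. Such values are relative to the rest of an array, so they cannot show changes in total RNA. Of 33252 features, 19460 named 1 gene, 1754 several and 12038 none; 19429 matched the RefSeq gene table by identifier, which changed 0 symbols. For the 769 genes with several features the one with the highest mean was kept. All 10 members had 1 such feature except RNF31, with 2. No filter on low values was applied. 0 array pairs were identical.

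One limma fit (version 3.58.1, R 4.3.3, with lmFit and eBayes) took all 12 arrays with a mean for each group and 8 residual degrees of freedom, two-sided, with Benjamini-Hochberg adjustment over 18417 genes and a threshold of 0.05. With 3 arrays a group, the smallest p of an exact permutation test is 0.1, and no such test was run. Alternatives were median centring, quantile normalization, only the groups compared, the replicate number as a block, the mean of a gene's features, dropping the third of genes that had the lowest means, array weights, an intensity trend and leaving out each array. A fit without parental TRAIL arrays, and these alternatives for the named genes of the wider list, were added after the data were seen. Deviations from group means of same-numbered arrays correlated at 0.15 to 0.40 between the TTR groups and at 0.06 to 0.11 between the parental groups. Between the untreated groups of the lines they correlated at −0.03 to 0.37. In each line, all 3 TRAIL arrays correlated most with the untreated array of the same number. By the size of the correlations alone, the TTR groups were read as paired and the parental groups were not. This does not show that the parental arrays were unpaired. The TTR pairing comes from these data (same-numbered arrays also share an unexplained code in their descriptions). The main fit left it out, and the replicate number entered only as a block in the alternatives.

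Members and lists were chosen with earlier results of these data known. All members are reported, and of the wider list the 4 called genes with the smallest p in each direction. Promoter windows are from RefSeq (GRCh38.p14); the motif was chosen after they had been read, and a narrower form of it was tried and dropped. Plots were made in Python 3.11.15 (matplotlib 3.10.9). The number of arrays limits the precision.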

Additional observations from a re-analysis of the deposited data

Results flagged for a closer look

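The change with TRAIL differed between TTR and parental cells by the test of the difference itself for 5 of the 10 genes. The TTR change minus the parental change was 0.89 for CYLD (adjusted p = 1.70e-04), 0.66 for TRAF3 (0.0068), 0.45 for TNIP1 (0.0147), 0.44 for TRAF6 (0.0369) and 0.73 for TNFAIP3 (0.0488). For CYLD, TRAF3 and TRAF6 the 3 parental TRAIL arrays lay below the other 9 arrays. The array medians moved with the same group, and their part in these differences was not tested beyond the scalings: after median centring the differences were 1.07, 0.85, 0.63, 0.63 and 0.92 in the order above, and after quantile normalization 1.05, 0.68, 0.24, 0.21 and 0.49.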

How the results depend on the processing

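Of 50 member differences (10 genes in 5 comparisons) set against 1050 alternative values, 976 kept their side of the threshold, 55 lost a call, 18 gained one and 1 turned with a call: TNIP1 with TRAIL in parental cells, −0.24 after median centring. In 25 of the 976 the sign changed with neither value past the threshold. The members called between untreated TTR and parental cells numbered 3, but 1 (TRAF1) after quantile normalization. For the difference between the TRAIL effects they numbered 5, but 2 after quantile normalization, beside 6852 and 6237 of all genes. Leaving out each array in turn gave 3 in every case for TRAIL in TTR cells, 5 to 7 for TRAIL in parental cells, 1 to 3 between the untreated lines, 5 to 8 between the lines with TRAIL and 3 to 5 for the difference between the TRAIL effects. The lines' split with TRAIL was 6 higher and 0 lower after median centring, beside 6839 and 2391 of all genes, against 4 and 2 as deposited. With the replicate number as a block, 7 members were called for TRAIL in parental cells (all arrays in the fit), against 6, with RNF31 added, and between the lines with TRAIL the block lost TNIP1 and gained TNFAIP3; it changed no other member's call. In a fit lacking the parental TRAIL arrays, 3 members were called for TRAIL in TTR cells and 3 between the untreated lines. Over all genes, 1072 were called for TRAIL in TTR cells, but 2391 after median centring. Of those calls 18.7% pointed up after that centring, against 56.2% as deposited. The count was 2670 paired, 3199 with array weights and 1709 without the parental TRAIL arrays. It was 379 to 693 without TTR untreated array 2 or 3 or a TTR TRAIL array. Between the untreated lines 1310 were called, 2386 with array weights and 782 to 829 without parental untreated array 1 or 2 or TTR untreated array 2. The wider list's 4 calls there became 11 with array weights and 1 or 2 without parental untreated array 1 or 2 or TTR untreated array 2 or 3. After median centring the higher share of calls over all genes was 74.1% between the lines with TRAIL, against 51.6% as deposited, and 80.9% where the TRAIL effects were compared between lines, against 61.6%. The cause of these changes was not tested.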

Other observations

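The wider list was also compared between the lines. In untreated cells 2 of its 54 measured genes were higher in TTR than in parental cells and 2 lower. Over all genes 7.11% passed, 3.64% higher and 3.47% lower, so the count for the list lies near the share of all genes. BIRC2, an inhibitor-of-apoptosis ubiquitin ligase, was higher (0.58 ± 0.11, adjusted p = 0.0040), with 8.74, 8.91 and 8.59 in untreated TTR cells, against 8.17, 8.17 and 8.17 in untreated parental cells. PELI1, a ligase of the Toll-like receptor branch, was higher (0.59 ± 0.14, adjusted p = 0.0129) and its relative PELI2 lower (−0.47 ± 0.12, adjusted p = 0.0301). TRAF7 was at −0.35 ± 0.10 (adjusted p = 0.0499), and its call was lost after median centring (adjusted p = 0.0727) and quantile normalization (0.0544), with only the untreated groups in the fit (0.0781), with an intensity trend (0.0584) and on leaving out any TTR TRAIL array, parental untreated array 1 or 2 or TTR untreated array 2 or 3 (0.0607 to 0.211). The PELI1 call was lost on leaving out TTR untreated array 3 or parental untreated array 1 or 2 (adjusted p = 0.0506 to 0.0689), and the PELI2 call on leaving out any untreated array except parental untreated array 3 (0.0640 to 0.153). With TRAIL 30 were higher and 11 lower, where 54.4% of all genes passed, 28.0% higher and 26.4% lower. TAB2 (1.47 ± 0.10), TAX1BP1 (1.39 ± 0.11), an A20 partner, ZRANB1 (1.36 ± 0.10) and CUL1 (1.29 ± 0.11) had the smallest p among the higher ones. OTUD1 (−0.79 ± 0.13), TRAF4 (−0.66 ± 0.12), TRAF7 (−0.49 ± 0.10) and SHARPIN (−0.40 ± 0.09), a partner of RNF31 in the linear ubiquitin ligase, did so among the lower ones, and SHARPIN did not pass after median centring (−0.20, adjusted p = 0.0950).

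The TTR change with TRAIL minus the parental change passed for 31 of the 54, 27 above 0 and 4 below, where 37.2% of all genes passed, 22.9% above 0 and 14.3% below. FBXW11 (1.37 ± 0.17), CUL1 (1.25 ± 0.16), ZRANB1 (1.25 ± 0.14) and TAB2 (1.22 ± 0.14) stood above 0. The 4 below were OTUD1 (−1.03 ± 0.18), TRAF4 (−0.57 ± 0.17), MYD88 (−0.52 ± 0.14), the adaptor of Toll-like receptors, and SHARPIN (−0.45 ± 0.13). After median centring TRAF4 (−0.39, adjusted p = 0.0872), MYD88 (−0.34, 0.0778) and SHARPIN (−0.27, 0.143) did not pass. Of OTUD1, TTR cells held 5.67, 5.83 and 5.84 with TRAIL, against 5.58, 5.70 and 5.74 without. Parental cells held 6.32, 6.56 and 6.83 with TRAIL, against 5.59, 5.48 and 5.22 without.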
